A study of Drosophila melanogaster with 4 samples.

Results

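The genes described here encode accessory gland and other seminal fluid proteins of Drosophila melanogaster. They were chosen by gene symbol, from the Acp, Sfp and Mst57D families and a short set of named genes such as SP, Dup99B, Ebp, antr and aqrs. Of 18769 probe sets on the arrays, 13647 named exactly 1 gene, and 30 of these met the rule, 1 for each of 30 genes out of 11982. Est-6, Spn2 and Peb, which the rule also lists, matched no probe set that named 1 gene by its current symbol. RNA from 1 pool of Canton-S flies went on each of 4 Affymetrix Drosophila Genome 2.0 arrays, and the label of every pool gives 30 male and 30 female flies. The groups were old flies (40 days) fed 100 µM curcumin, old flies without curcumin, young flies (1 to 3 days) fed 100 µM curcumin and young flies without curcumin, with 1 array each. The young age is given as 1 to 3 days in the labels, as day 1 in the sample titles and as 3 days in the design text. Curcumin, a polyphenol of turmeric, was given in adult sucrose and yeast food, and the flies without it received the ethanol vehicle. The study asked which genes differ between young and old flies and whether curcumin alters expression at either age. A pool is a single sample, so a difference between a pair of arrays has no replicate check and carries no p-value. Precision is limited by there being 4 arrays. The labels do not say how long each group had been on its food. In flies fed curcumin, age and time on that food therefore cannot be told apart. In the age comparison without curcumin neither group received it.

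Seminal fluid proteins are made mainly in the paired accessory glands of the male, with further contributions from the ejaculatory duct and the ejaculatory bulb. They pass to the female with sperm at mating, where they act on ovulation, egg laying, sperm storage, appetite and willingness to mate again. The sex peptide SP is the best known of them. It binds to stored sperm with the help of a set of other seminal proteins and acts on a receptor in the female for days after mating.

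Signals are MAS5 values, a single number that summarises all probes of a probe set, rescaled to a common trimmed mean. Signals under a floor of 19.3 were treated as not measured and set to the floor, so a difference against them is a bound. Per array, 76.2% to 79.2% of all genes reached the floor. All 30 seminal fluid genes reached the floor on some array and 29 on all 4, the exception being Sfp65A in old flies with curcumin. Markers of another male tissue were present, with 22 of 29 testis and sperm genes above the floor on every array. Markers of female tissue were largely absent, which goes against the female part of the label of the pools. Of 17 ovary and eggshell genes 15 were under the floor on all 4 arrays, among them the eggshell genes Cp15, Cp16, Cp18, Cp19, Cp38 and Vm26Aa and the germline genes osk and vas. The exceptions were Cp36, at 26.1 at most, and grk, at 245 to 288. The yolk protein genes, which are abundant transcripts of adult females, read 27.4 with and 9.55 without curcumin in old flies and 11.7 with and 13.3 without in young flies for Yp1. Yp2 lay under the floor on 3 arrays and read 20.9 in old flies with curcumin, and Yp3 read 43.6 to 57.9 on the 4 arrays. Of 3 genes of the spermatheca and female tract, Send1 and Send2 were under the floor throughout, while Spn42Dc read 50.2 to 78.1 and was above it on all 4 arrays. The genes hdly (481 to 1978), frma (219 to 664) and Esp (34.0 to 56.0), known for roles on the female side, were also above the floor on all 4 arrays. Of the listed dosage compensation genes only msl-2 was on hand. It read 82.7 with and 138 without curcumin in old flies, and 55.3 with and 57.3 without in young flies. The part of the makeup of the pools in the differences below was not tested.

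In old flies without curcumin, seminal fluid genes mostly read lower than in young flies without curcumin. Of the 30 genes 15 were at least 2-fold lower and 0 at least 2-fold higher, against 9.80% and 4.21% of 9712 genes compared. The median log2 difference was -0.98 over the 30 genes and -0.016 over all genes. Past 2-fold in either direction were 14.0% of all genes. In all, 26 of the 30 were lower by any amount. The values ran from -2.72 for Acp53C14c to 0.64 for lectin-46Cb. The arrays cannot tell fewer secretory cells from less RNA per cell.

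In old flies with curcumin, the 30 genes lay near the level of young flies with curcumin in the median only. Their log2 differences ran from -1.31, a bound, to 1.58. Past 2-fold on the higher side were 3 of 30, namely lectin-46Ca, lectin-46Cb and Acp26Ab, and on the lower side 1, Sfp65A, whose value is a bound. Over 9749 genes these shares were 3.00% and 2.63%, or 5.62% in either direction. The median was -0.12, and its sign depended on the scaling, with 0.11 after quantile normalization and 0.0058 without rescaling, where the median of all genes was 0.12. By any amount, 18 of the 30 genes were lower and 12 higher.

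Within old flies, curcumin food went with higher seminal fluid signals. At least 2-fold higher with curcumin were 14 of 30 genes and at least 2-fold lower were 0, against 5.20% and 1.25% of 9612 genes, or 6.45% in either direction. The median log2 difference was 0.94, against -0.015 for all genes, and 28 of the 30 were higher. Acp95EF and Sfp65A were the 2 that were lower. This comparison shares the array of old flies without curcumin with the age comparison on plain food, so the opposite signs of these 2 comparisons are not independent of each other.

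Within young flies, the 30 genes differed little with curcumin. Past 2-fold were 0 of the 30 on either side, against 0.389% higher and 0.399% lower of 9764 genes, or 0.789% in either direction. The median was -0.062, with a range from -0.43 for Acp26Ab to 0.66 for Acp95EF, and the median of all genes was -0.037. By any amount, 22 genes were lower and 8 higher with curcumin, and of all genes 56.2% were lower.

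**Figure D1:**
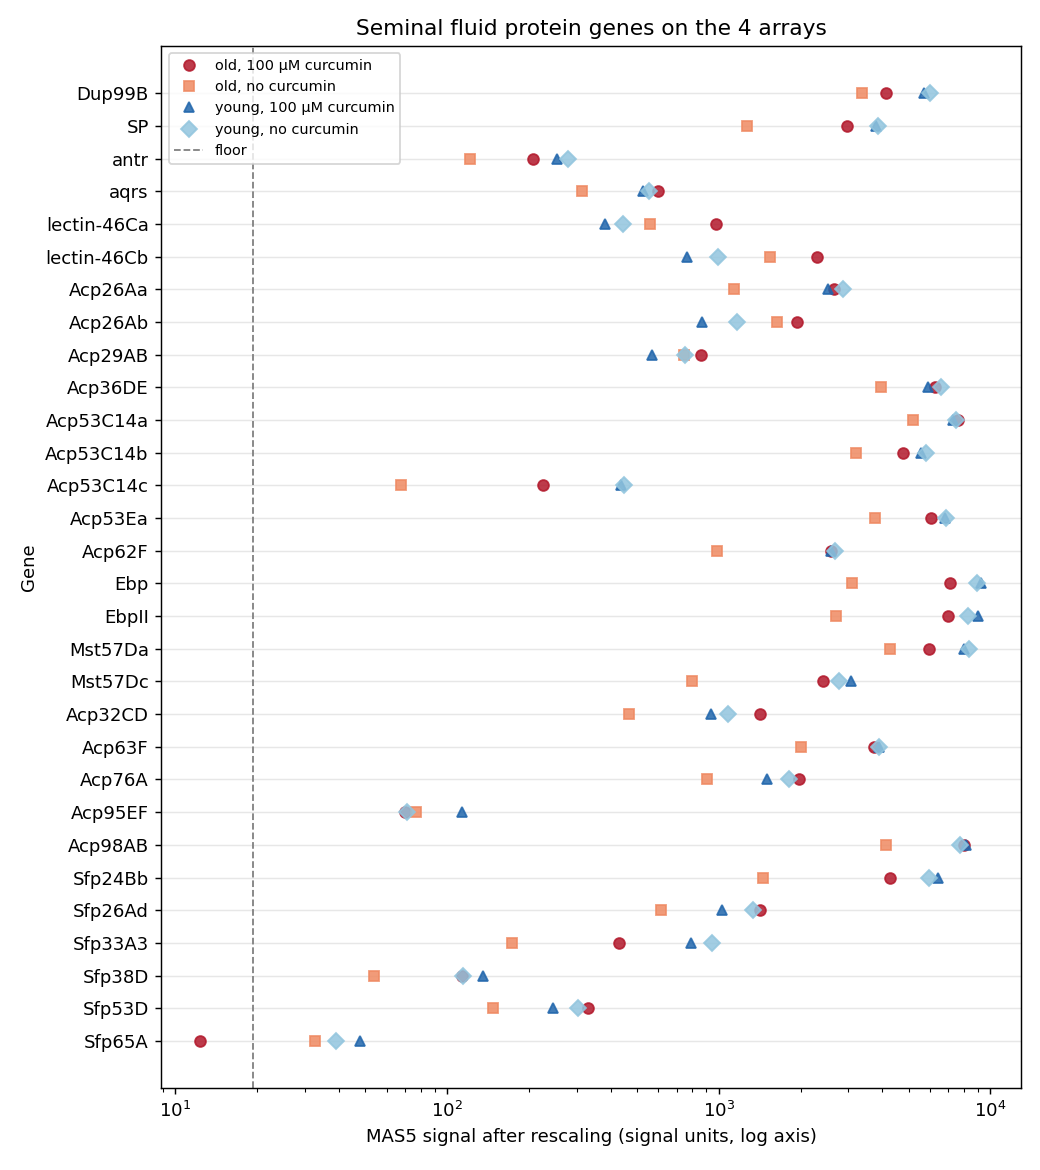
MAS5 signals of the 30 seminal fluid genes (log axis, signal units) on the 4 arrays, 1 point per array and 1 row per gene, with the floor of 19.3 as a dashed line. Among the 29 genes above the floor on every array, the square of old flies without curcumin is the lowest point of 24.

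The array of old flies without curcumin was the lowest of the 4 for most of these genes. Among the 29 genes that reached the floor on every array, it was the lowest for 24, or 82.8%. Among all 8676 such genes it was the lowest for 34.4%. The array of young flies with curcumin was the lowest for 4 seminal fluid genes, that of old flies with curcumin for 1 and that of young flies without curcumin for 0. The curcumin difference in old flies exceeded that in young flies for 28 of 30 genes, with a median excess of 0.97 on the log2 scale, and by 1 or more for 15. Over 9985 genes the median excess was 0.012 and 6.70% reached 1. With 1 array per combination this difference of differences could not be tested.

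The sex peptide genes stood on opposite sides of the 2-fold line for age on plain food. SP read 2958 with and 1267 without curcumin in old flies, and 3805 with and 3842 without curcumin in young flies. Its age difference was 3.03-fold lower on plain food and 1.29-fold lower on curcumin food, and in old flies it was 2.33-fold higher with curcumin. Dup99B, a related peptide of the ejaculatory duct that acts on the same receptor, read 4110 with and 3360 without curcumin in old flies, and 5705 with and 5995 without in young flies. Dup99B was 1.78-fold lower with age on plain food and 1.39-fold lower on curcumin food. Both genes were thus lower in old flies on either diet. The young arrays of each differed by 1.01-fold for SP and 1.05-fold for Dup99B.

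The seminal proteins that load SP onto sperm did not move as a block. antr, which encodes a cysteine-rich secretory protein, read 207.8 with and 121.7 without curcumin in old flies, and 255.0 with and 279 without in young flies, 2.29-fold lower with age on plain food. aqrs, which encodes a relative of serine proteases, read 597 with and 314 without curcumin in old flies, and 524 with and 555 without in young flies. For aqrs the old array with curcumin lay above both young arrays. The sugar-binding lectin genes ran the other way, and they lie next to each other in the gene table of assembly Release 6. lectin-46Ca read 980.4 with and 559.7 without curcumin in old flies, and 380.5 with and 445 without in young flies. lectin-46Cb read 2291 with and 1542 without curcumin in old flies, and 766 with and 990.4 without in young flies. Both lectin genes were higher in old flies on either diet. Their age differences were 2.58-fold and 2.99-fold higher on curcumin food, and 1.26-fold and 1.56-fold higher on plain food.

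Outside the chosen genes, 8 further genes of the sex peptide response were measured on all arrays. With age on plain food 2 were past 2-fold on the higher side and 1 on the lower, against 4.21% and 9.80% of all genes. Their median was 0.47. The seminal protease gene Sems read 515 with and 256 without curcumin in old flies and 489 with and 536 without in young flies, 2.09-fold lower with age on plain food. The seminal gene CG17575, which encodes another cysteine-rich secretory protein, was higher with age on both diets, by 1.46 on the log2 scale with curcumin and 0.95 without. The 2 genes on the higher side were hdly (1.69) and frma (1.60), known for their roles on the female side. hdly read 481 with and 1978 without curcumin in old flies. The receptor gene SPR read 85.3 with and 96.6 without curcumin in old flies, and 96.1 with and 81.3 without in young flies, with a log2 age difference of 0.25 on plain food.

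The neighbouring genes Acp26Aa and Acp26Ab differed in direction. Acp26Aa encodes ovulin, which stimulates ovulation in the mated female. It read 2652 with and 1136 without curcumin in old flies, and 2514 with and 2858 without in young flies, 2.51-fold lower with age on plain food and 1.05-fold higher on curcumin food. The old array with curcumin lay between the young arrays. Acp26Ab read 1933 with and 1643 without curcumin in old flies, and 865.7 with and 1164 without in young flies. Acp26Ab was higher with age, by 2.23-fold on curcumin food and 1.41-fold on plain food.

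Genes with roles in sperm storage and sperm protection were lower with age on plain food by unlike amounts. Acp36DE, a large glycoprotein needed for efficient sperm storage, read 6271 with and 3971 without curcumin in old flies, and 5900.4 with and 6594 without in young flies, 1.66-fold lower with age on plain food. Acp62F, a protease inhibitor that enters the female's circulation, read 2579 with and 985 without curcumin in old flies, and 2581 with and 2674 without in young flies. For Acp62F the other 3 arrays lay between 2579 and 2674, and old flies without curcumin were 2.71-fold lower than young flies without it. Acp29AB, a lectin that helps to retain sperm, read 863 with and 744 without curcumin in old flies and 569.6 with and 753 without in young flies. Its age difference on plain food was 1.01-fold, the nearest to no difference among the 30.

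The Acp53 genes form a cluster, with Acp53C14a, Acp53C14b, Acp53Ea and Acp53C14c in a row in the gene table and Sfp53D separated from Acp53C14a by 1 protein-coding gene. All 5 were lower with age on plain food, but by unlike amounts. Acp53C14c read 226 with and 67.9 without curcumin in old flies, and 436 with and 447 without in young flies, 6.58-fold lower with age on plain food, more than any other of the 30 genes. On curcumin food Acp53C14c was 1.93-fold lower. Its neighbour Acp53Ea read 6027 with and 3758 without curcumin in old flies, and 6783 with and 6887 without in young flies, 1.83-fold lower on plain food. Acp53C14b read 4754 with and 3197 without curcumin in old flies, and 5551 with and 5786 without in young flies. Acp53C14a read 7579 with and 5203 without curcumin in old flies, and 7253 with and 7479.6 without in young flies. They were 1.81-fold and 1.44-fold lower with age on plain food, and on curcumin food Acp53C14b was 1.17-fold lower and Acp53C14a 1.04-fold higher. Sfp53D read 330.4 with and 147 without curcumin in old flies, and 245.5 with and 302 without in young flies. It was 2.06-fold lower on plain food and 1.35-fold higher on curcumin food. The identifier of its probe set marks probes that may match transcripts of more than 1 gene.

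The ejaculatory bulb genes Ebp and EbpII, which encode proteins of the mating plug and lie side by side, had like profiles. Ebp read 7068 with and 3096 without curcumin in old flies, and 9264 with and 8919 without in young flies. EbpII read 6980.2 with and 2710.4 without curcumin in old flies, and 8967 with and 8299.7 without in young flies. Their age differences were 2.88-fold and 3.06-fold lower on plain food, and 1.31-fold and 1.28-fold lower on curcumin food. The related gene EbpIII, which the rule does not include, read 6525 with and 6584 without curcumin in old flies, and 7129 with and 7166 without in young flies. The log2 age difference of EbpIII on plain food was -0.12.

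Mst57Da and Mst57Dc encode small secreted proteins of the accessory gland and have 2 other protein-coding genes between them. Mst57Da read 5963 with and 4280.4 without curcumin in old flies, and 7971 with and 8334 without in young flies. Mst57Dc read 2412 with and 800.1 without curcumin in old flies, and 3056 with and 2764 without in young flies. Mst57Dc was 3.45-fold lower and Mst57Da 1.95-fold lower with age on plain food, and on curcumin food they were 1.27-fold and 1.34-fold lower.

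Of the remaining genes and Sfp53D, 11 in all, 7 were at least 2-fold lower with age on plain food, against 9.80% of all genes. At least 2-fold higher with curcumin in old flies were 7 of the 11, against 5.20% of all genes. Sfp24Bb read 4279.6 with and 1456 without curcumin in old flies, and 6387 with and 5958 without in young flies, 4.09-fold lower with age on plain food. Sfp33A3 read 430.5 with and 173.6 without curcumin in old flies, and 789 with and 945 without in young flies, 5.44-fold lower on plain food and 1.83-fold lower on curcumin food. On curcumin food Sfp24Bb was 1.49-fold lower with age. Acp32CD read 1422 with and 467 without curcumin in old flies, and 933 with and 1085 without in young flies. It was 2.32-fold lower with age on plain food and 1.52-fold higher on curcumin food, and its 3.05-fold curcumin difference in old flies was second in size to that of Acp53C14c, at 3.34-fold. The serpin gene Acp76A read 1979 with and 904.6 without curcumin in old flies, and 1512 with and 1818 without in young flies. Sfp26Ad read 1416 with and 615 without curcumin in old flies, and 1025 with and 1334 without in young flies. Both had their highest signal in old flies with curcumin and their lowest in old flies without it, with age differences of 2.01-fold and 2.17-fold lower on plain food and 1.31-fold and 1.38-fold higher on curcumin food.

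Acp63F read 3718 with and 2008 without curcumin in old flies, and 3888 with and 3889 without in young flies. Acp98AB read 8025 with and 4128 without curcumin in old flies, and 8103 with and 7726 without in young flies. They were 1.94-fold and 1.87-fold lower with age on plain food, and 1.05-fold and 1.01-fold lower on curcumin food. Sfp38D, of low signal, read 113.8 with and 54.1 without curcumin in old flies, and 135.5 with and 114.4 without in young flies. Acp95EF and Sfp65A did not share the common profile. Acp95EF read 69.8 with and 77.0 without curcumin in old flies, and 113.2 with and 71.4 without in young flies, so its high array was that of young flies with curcumin. Sfp65A read 12.4 with and 32.7 without curcumin in old flies, and 47.8 with and 39.0 without in young flies. Its first value lies under the floor, so by the bound it was lower with age on curcumin food by 2.48-fold or more.

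**Figure D2:**
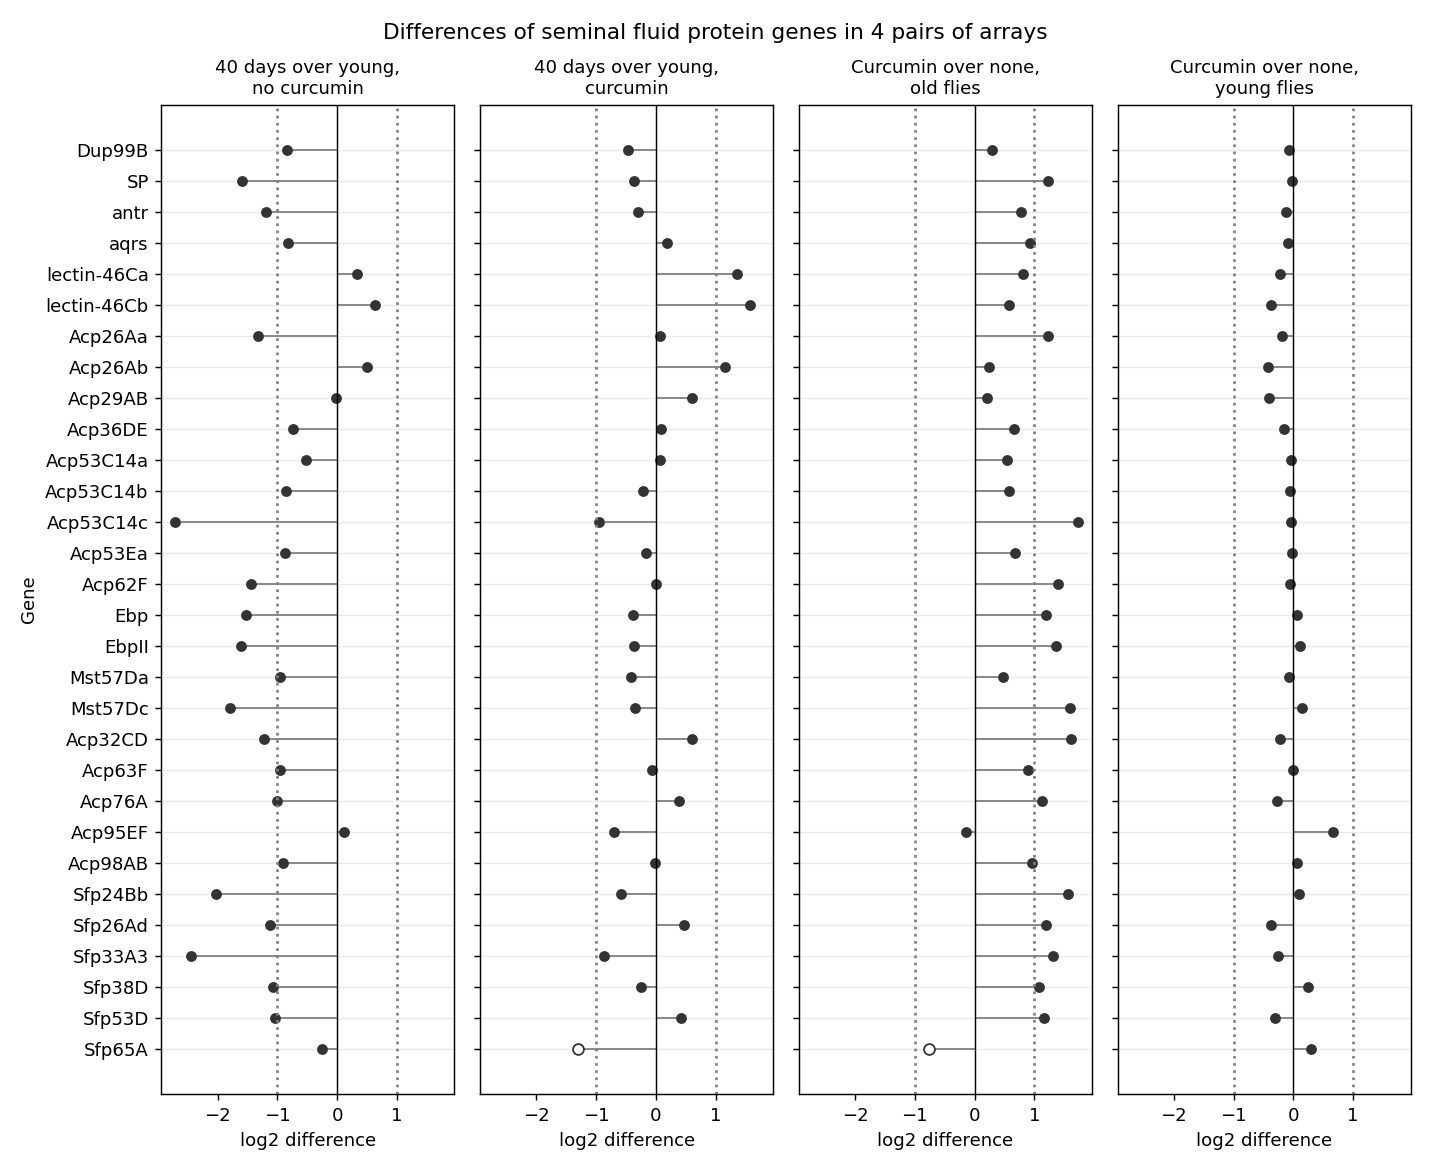
Log2 differences of the 30 genes in the 4 pairs of arrays, 1 row per gene, with dotted lines at 2-fold and open points for bounds against the floor. Points lie mostly left of 0 for age without curcumin (26 of 30), mostly right of 0 for curcumin in old flies (28 of 30) and near 0 for curcumin in young flies.

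The age differences on the 2 diets, which have no array in common, ranked the genes partly alike. Pearson's r across the 30 genes was 0.62 and Spearman's rho 0.46, and across 8676 genes they were 0.64 and 0.62. These points share arrays, scaling and labelling, and genes are not independent replicates. The lectin pair and Acp26Ab had the 3 highest differences on both diets. Acp53C14c and Sfp33A3 were the 2 lowest on plain food, and only Sfp65A was lower than them on curcumin food.

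**Figure D3:**
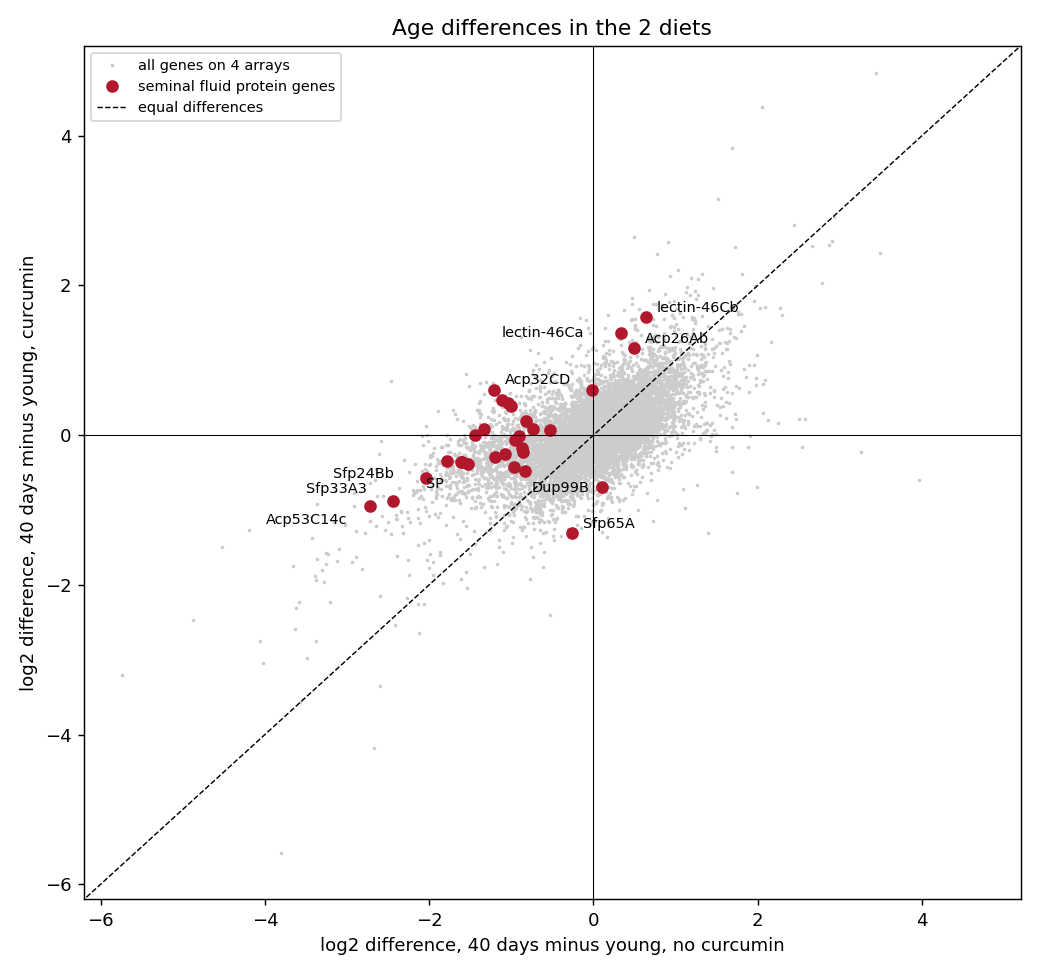
Log2 difference between 40 days and young on food without curcumin (x axis) and with curcumin (y axis), for the 30 seminal fluid genes in red and the 8676 genes measured on all arrays in grey. Of the red points 26 lie left of 0 on the x axis and 18 under 0 on the y axis, and Sfp65A is a bound on the y axis.

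The additive model of age and curcumin, fitted in limma over 9562 genes, tests both factors over the 4 arrays. A single residual degree of freedom is left to each gene, so a dependence of the curcumin effect on age could not be fitted beside it. The residual holds array noise and any such dependence together. The SE and p-values of the model therefore do not measure noise alone. For age, 0 of 9562 genes (0.00%) and 0 of the 30 had a Benjamini-Hochberg adjusted p under 0.05, with adjusted p from 0.165 to 0.72 among the 30. At an unadjusted p under 0.05 there were 2238 genes, 23.4% of those tested, and 10 of the 30, of which 8 were lower and 2 higher in old flies. Estimates for age averaged over diets were -1.66 for Sfp33A3 (SE 0.43, limma adjusted p 0.165) and -1.83 for Acp53C14c (SE 0.47, limma adjusted p 0.166). The estimate for lectin-46Cb was 1.11 (SE 0.29, limma adjusted p 0.168) and for SP it was -0.98 (SE 0.35, limma adjusted p 0.21). When each array was instead centred on its median, limma called 982 genes, including 6 of the 30, namely Acp26Ab, Acp53C14c, Sfp24Bb, Sfp33A3, lectin-46Ca and lectin-46Cb. For curcumin, 0 genes (0.00%) passed in limma, 344 genes (3.60%) and 0 of the 30 had an unadjusted p under 0.05, and the adjusted p of the 30 ran from 0.83 to 0.95.

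Seminal fluid genes under other names had smaller median differences for age on plain food and for curcumin in old flies, but not in the other pairs. Of 28 such genes 8 (28.6%, against 9.80% of all genes) were past 2-fold on the lower side with age on plain food. On the higher side was 1 (3.57%, against 4.21% of all genes), and the median was -0.43. On curcumin food 3 were past 2-fold on the higher side and 0 on the lower, against 3.00% and 2.63% of all genes. The median there was 0.13. In old flies 6 of 28 (21.4%, against 5.20% of all genes) were at least 2-fold higher with curcumin, with a median of 0.51. Obp56i counts among these 6 and the 8 above by bounds, as it read 17.4 in old flies without curcumin. In young flies the median was -0.21. On the log2 scale the age difference on plain food was -1.68 for the serpin gene Spn77Bb, -1.59 and -1.56 for the odorant-binding protein genes Obp22a and Obp51a, and -1.48 for the lipase gene CG17097. The gene on the higher side was Phm (1.06, named after its value was seen), which encodes an enzyme that amidates peptides and is also active in neurons.

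Genes that regulate the accessory gland or act in its development gave a median of the other sign. Of 7 measured with age on plain food 0 were at least 2-fold higher or lower, against 14.0% of all genes. Their median was 0.32, and 2 (28.6%, against 51.1% of all genes) were lower by any amount, the lowest at -0.023. The arrays do not tell which tissue the signals of these genes came from. The transcription factor gene prd, needed for the gland to form and for its secretory products, read 194 with and 189 without curcumin in old flies, and 112 with and 141 without in young flies. The nuclear receptor gene svp (0.48) and the growth factor receptor gene btl (0.64) were likewise higher in old flies without curcumin. The signal of btl was low, at 56.8 in old and 36.5 in young flies without curcumin.

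Testis and sperm genes had a share past 2-fold near that of all genes. Of 26 compared for age on plain food, 3 (11.5%, against 9.80% of all genes) were at least 2-fold lower and 0 higher. Their median was -0.29, and 22 (84.6%, against 51.1% of all genes) were lower by any amount. Their summed signal was 6397 with and 5587 without curcumin in old flies, and 7488 with and 8257 without in young flies. The summed signal of the seminal fluid genes was 88249 with and 48822 without curcumin in old flies, and 96326 with and 98346 without in young flies. betaTub85D, the testis tubulin gene, differed by -1.17 on the log2 scale with age on plain food, and the sperm protein gene Mst84Dd by -1.06. With curcumin in old flies the testis median was 0.12, with 1 of 26 (3.85%, against 5.20% of all genes) at least 2-fold higher. That gene, sa, read 16.6 in old flies without curcumin, under the floor, so its difference is a bound. By a bound sa is also 1 of the 3 lower with age on plain food. The part of testis content in the seminal fluid values was not tested.

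**Figure D4:**
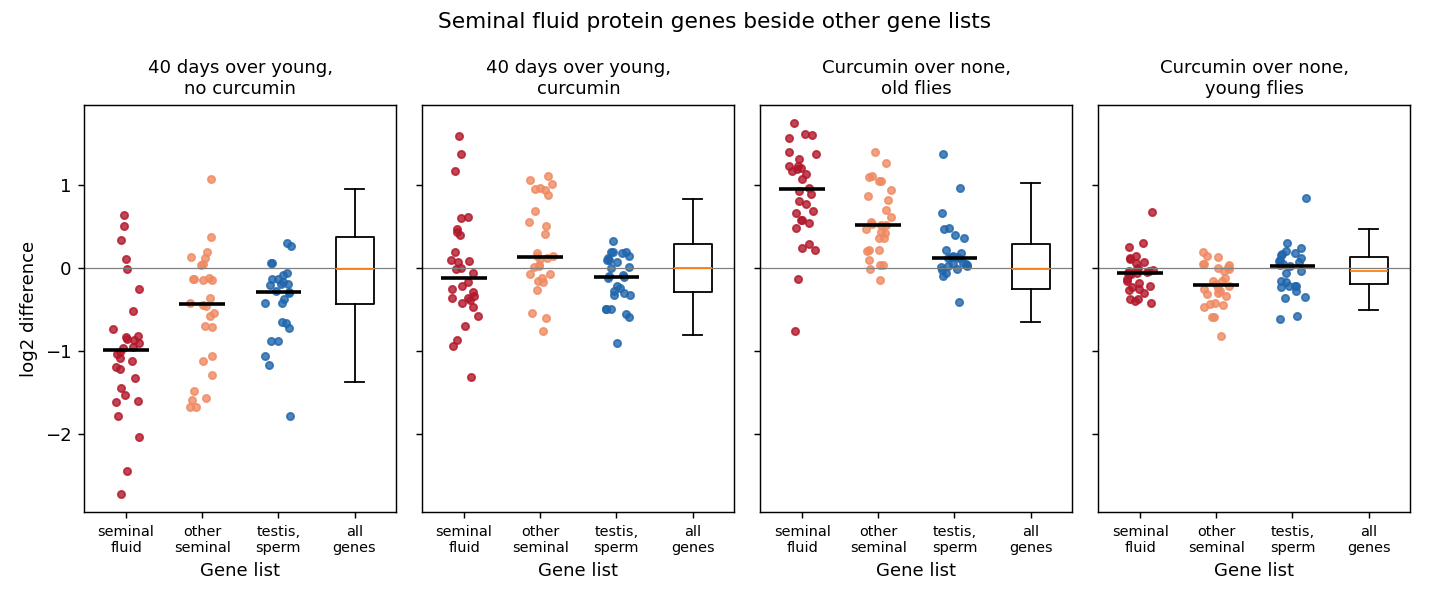
Log2 differences in the 4 pairs of arrays for the 30 seminal fluid genes, 28 seminal fluid genes under other names and the testis and sperm genes, 1 point per gene with the median as a black line, beside a box for all genes (median, quartiles, whiskers at the 5th and 95th percentiles). For age without curcumin the medians are -0.98, -0.43, -0.29 and -0.016, and for curcumin in old flies 0.94, 0.51, 0.12 and -0.015.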

How the data were processed

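The authors deposited 1 log2 signal for each probe set and array. MAS5 is named in the submitters' processing notes, without a version or target signal, and the log base was read from the values. Column medians were 5.29 and 5.18 (old flies with and without curcumin) and 5.23 and 5.36 (young flies with and without). Values were back-transformed, rescaled to a common 2% trimmed mean (factors 0.975 to 1.06), floored at the 40th percentile pooled over arrays and returned to log2. Gene names came from the platform annotation, updated to Release 6 by gene number (13544 of 13647 matched). The probe set with the highest mean stood for a gene, and each seminal fluid gene had 1. A pair was compared for genes that reached the floor on either array. limma 3.58.1 (R 4.3.3) used genes above it on at least 2 arrays. The fit was tried on simulated data that held age differences but no dependence of the curcumin effect on age. Its p-values measure only the spread between these arrays, in which noise and such a dependence are mixed. The members and lists were chosen with earlier results of these data known. All 30 genes are named. Of other lists up to 4 are named, with the largest age difference on plain food among those that reached the floor on both arrays. Besides these, EbpIII, SPR, Phm, sa, Obp56i and the female markers were chosen after their values were seen. Alternatives were other scalings, floors, probe set rules and thresholds, and in limma an intensity trend with a robust prior and a model without the other factor. Python 3.11.15 with pandas 2.3.3 was used.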

Additional observations from a re-analysis of the deposited data

Results flagged for a closer look

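With 1 array per group, a sample far from its group could not be looked for. The following genes are given because an effect had opposite signs in the groups it was measured in, with at least 0.3 on the log2 scale on each side. The differences between groups were not tested. The age difference on plain food and on curcumin food was -1.22 and 0.61 for Acp32CD, -1.01 and 0.39 for Acp76A, -1.12 and 0.47 for Sfp26Ad, and -1.04 and 0.43 for Sfp53D. The curcumin difference in old and in young flies was 1.20 and -0.38 for Sfp26Ad, 1.17 and -0.30 for Sfp53D, and 0.57 and -0.37 for lectin-46Cb.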

How the results depend on the processing

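No paired analysis was possible because each group has a single array and the groups share only replicate number 1. The 15 genes past 2-fold on the lower side with age on plain food numbered 10 to 15 under the other scalings, floors and probe set rule, and 6 at a 3-fold threshold. The median of all 30 genes, -0.98, became -0.78 after centring on each array's median, which also gave 0.18 in place of -0.016 for the median of all genes and 52.0% in place of 30.1% for the share of higher among 2-fold genes. With age on curcumin food, the 3 higher genes became 0 at 3-fold. The 1 lower gene became 2 after quantile normalization, 0 with the floor at the 60th percentile and 0 at 3-fold, and the median of -0.12 became 0.11 after quantile normalization. With curcumin in old flies, 14 higher genes became 3 at 3-fold, and the 0 lower became 1 with the floor at the 25th percentile or with no floor. The share of higher among 2-fold genes in that pair was 80.7%, and 67.0% with median centring. Without rescaling it was 69.7% in place of 53.3% for age on curcumin food, and 33.3% in place of 49.4% for curcumin in young flies, where the floor at the 60th percentile gave 65.2%. For the limma age effect, median centring called 982 genes and 6 of the 30 against 0 and 0, and a floor at the 60th percentile gave 8 genes. Of the 30, 10 had an unadjusted p under 0.05, 6 without rescaling and 8 in a model of age alone, which called 0 genes. For the limma curcumin effect, median centring gave 5 of the 30 at that level, against 0. The causes of these changes were not tested. Each pair had 209 combinations of gene and alternative setting. Values moved by less than 0.20 on the log2 scale in 174 of these for age on plain food and 200 for age on curcumin food. For curcumin the numbers were 206 in old flies and 209 in young flies. For age on plain food, centring on each array's median moved every one of the 30 genes by more than 0.20. That setting shifts each array by 1 constant, so genes above the floor move together. Acp26Aa went from -1.33 to -1.12 and SP from -1.60 to -1.39. Low signals limit Sfp65A, Acp95EF and Sfp38D.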

Other observations

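A further 5 probe sets name a seminal fluid gene of the rule together with at least 1 other gene and were left out for that reason. Of these, 4 were at or above the floor in each pair. Past 2-fold on the lower side with age were 3 of the 4 on plain food, where the median was -1.59 on the log2 scale. On curcumin food 1 was, with a median of -0.61. The shares of all genes were 9.80% on plain food and 2.63% on curcumin food. With curcumin 2 of the 4 were at least 2-fold higher in old flies, with a median of 0.97, and 0 in young flies, with a median of 0.15. Of all genes 5.20% and 0.389% were.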
